A study of Mus musculus with 157 samples.

Results

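Mettl3 encodes the catalytic subunit of the enzyme that writes N6-methyladenosine (m6A), a methyl mark on messenger RNA, and its loss was studied here in 2 mouse myeloid progenitor populations, CMP and GMP, the common myeloid progenitor and the granulocyte-monocyte progenitor. The members were chosen by their labels: the 4 input libraries of Mettl3 -/- cells and the 4 input libraries of wild-type cells of these cell types. They go with the 8 libraries of RNA precipitated with an anti-m6A antibody (IP) that carry the same genotypes and cell types, which makes 16 of the 157 samples of the series. Each genotype has 2 libraries per cell type and kind, numbered 1 and 2, and all cells are labelled untreated. The labels give neither the strain, age or number of the animals, nor how and where the gene was deleted, nor whether the numbers stand for separate animals, and the p-values therefore reflect no more than library-to-library spread, which may be technical. The question was which genes differ between knockout and wild type in both progenitors. The series holds the same genotypes in 5 other types of stem and progenitor cells (LT.HSC, ST.HSC, MPP, MEP and MkP), with 20 further input libraries that served as samples in which the CMP and GMP pattern could be looked up.

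METTL3 works in a complex with METTL14, in which METTL3 transfers the methyl group and METTL14 helps to bind the RNA. The mark is removed by demethylases and read by proteins that steer the stability, splicing and translation of the marked RNA. CMP give rise to GMP, and GMP to neutrophils and monocytes. In the mouse, loss of Mettl3 in blood-forming cells is known to impair the differentiation of stem cells.

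The 8 input libraries held between 4604740 and 17512017 reads, the 8 IP libraries between 10854934 and 19996540 reads. Input libraries correlated with each other at r between 0.834 and 0.946 (log2 values across genes, which are not independent replicates). Among the IP libraries, knockout CMP 1 and knockout GMP 1 stood apart: their r with the rest was 0.683 to 0.726 and with each other 0.656. The other 6 correlated at 0.863 to 0.948. Knockout IP GMP 1 had 6142 genes with at least 10 counts, against 11221 to 13704 in the other 7 IP libraries. The IP and enrichment tests below were therefore also run without these libraries. The labelled cell types matched their markers: Mpo, the myeloperoxidase of primary granules, had values of 205190 and 119710 in knockout CMP and 888050 and 858310 in knockout GMP, against 302270 and 160400 in wild-type CMP and 1162500 and 475340 in wild-type GMP. Over 3 Y-linked genes the summed value was at most 19.3 in each of the 8 CMP and GMP inputs, whichever the genotype. It exceeded 100 in 3 of the 20 inputs of the other types, knockout ST.HSC 2, wild-type ST.HSC 1 and wild-type LT.HSC 1.

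The targeted gene did not separate the genotypes in the input RNA. Mettl3 had deposited normalised values of 274 and 424 in knockout CMP and 365 and 476 in knockout GMP, against 384 and 445 in wild-type CMP and 127 and 316 in wild-type GMP. The groups overlapped (log2 difference 0.39, SE 0.34, adjusted p = 0.992). In the IP libraries its scaled counts were 1396 and 775 in knockout CMP and 1797 and 953 in knockout GMP, against 634 and 880.4 in CMP and 903 and 705 in GMP of the wild types. The labels do not say which part of the gene was removed. A count over the whole gene checks the labels only if it covers that part, and genotypes are used here as labelled. Mettl14 was at 342 and 249.5 in knockout CMP and 246 and 196 in knockout GMP, against 297 and 297 in CMP and 256 and 284 in GMP of the wild types, a log2 difference of -0.16 (SE 0.26). Of the 9 members of the m6A writer complex that were tested, 0 passed the threshold, and their median log2 difference was 0.10.

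In the 8 input libraries no gene passed the threshold of an adjusted p of 0.05. In a limma fit of log2(value + 1) with a mean for each genotype and type, 0 of 12172 tested genes (0%) differed over the average of CMP and GMP. At an unadjusted p of 0.05 the count was 569 (4.67%), 317 higher and 252 lower in the knockout, and the smallest adjusted p, 0.134, belonged to Selp. A difference above 0 was found for 6168 of the 12172 genes, the share to set beside the counts of list members below. Within CMP alone 0 genes passed, with 247 (2.03%) at the unadjusted level, and within GMP alone 0 passed, with 294 (2.42%). On the reads recovered from the normalised values, edgeR called 0 of 12315 genes, while DESeq2 called 58 higher (0.471%) and 17 lower (0.138%). All differences named below are thus descriptions of these libraries unless a sentence says that a test was passed. Since no gene passed, no gene met the stricter rule for a shared change, which had asked for both an adjusted p under 0.05 and a log2 change of at least 1 in each type.

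A looser pattern, set after the values had been seen, asked for both knockout libraries on the same side of both wild-type libraries in CMP and again in GMP, with a log2 difference of at least 1 in each. It was met by 130 genes that were higher in the knockout (1.07% of those tested) and 114 that were lower (0.937%). CMP alone had 517 genes of the higher kind (4.25%) and 502 of the lower kind (4.12%), and GMP alone had 461 (3.79%) and 501 (4.12%). The 130 shared higher genes were 25.1% of the CMP and 28.2% of the GMP genes, and the 114 shared lower genes were 22.7% and 22.8%. Opposite directions were met by 13 genes higher in CMP and lower in GMP and by 17 lower in CMP and higher in GMP. The 13 were 2.51% of the genes higher in CMP, where 4.12% of all genes tested were lower in GMP. The 17 were 3.39% of the genes lower in CMP, where 3.79% of all genes tested were higher in GMP. At the edge of the pattern, the smaller of the CMP and GMP differences was 1.04 for F2rl2, just inside, and 0.96 for Avpi1, just outside. On the lower side it was -1.02 for Gm21926 and -0.99 for Rcn3. The counts lean on the weakly expressed genes and on single libraries: a pseudocount of 10 in place of 1 left 71 higher and 39 lower genes. Leaving out knockout CMP 1 gave 216 higher and 197 lower genes, leaving out knockout GMP 1 gave 285 and 197, and leaving out wild-type GMP 1 gave 212 and 190. With other libraries left out the counts moved less. A rule of no overlap asks less of fewer libraries, and the part of this in the counts was not tested. Libraries of the same genotype and number also moved together across types, with a correlation of their deviations of 0.49 between knockout CMP and knockout GMP and of 0.56 between wild-type CMP and wild-type GMP. The types may thus not be separate samples of a genotype. Averaging the types into 1 value per genotype and number gave 0 genes past the threshold.

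**Figure D1:**
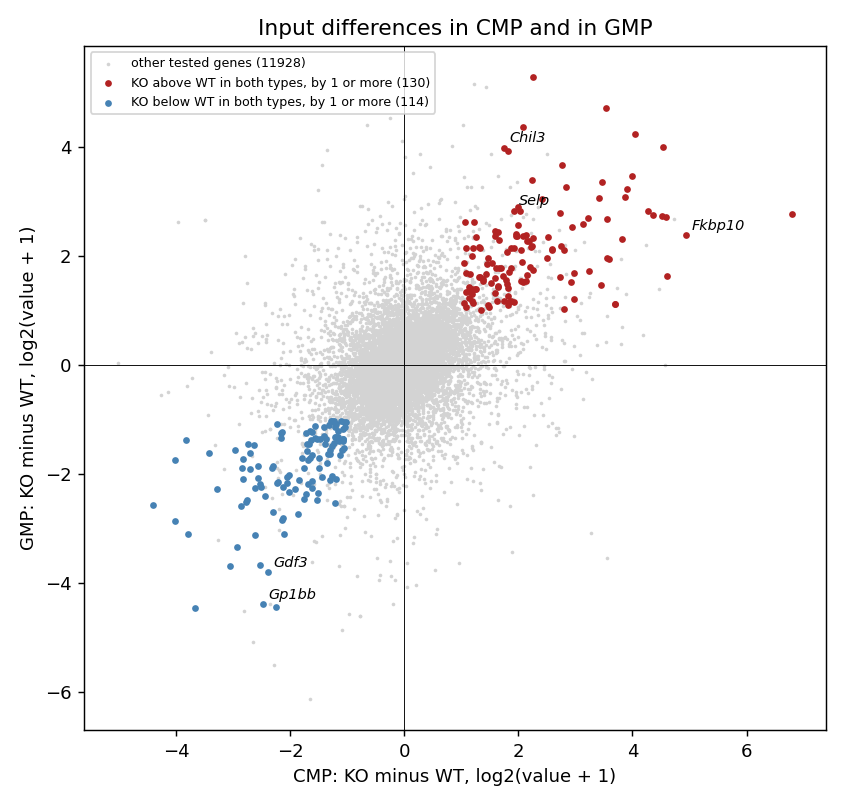
Each point is 1 of the 12172 tested genes, with the knockout minus wild-type difference of log2(value + 1) in CMP on the horizontal axis and in GMP on the vertical axis, each a difference of means over 2 libraries per genotype. The 130 genes above wild type in both types are red and the 114 below it are blue; the colours follow the rule of selection, and Selp, Chil3 and Fkbp10 lie on the higher side and Gdf3 and Gp1bb on the lower.

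The gene with the smallest p was Selp, which encodes P-selectin, the adhesion molecule through which platelets and activated endothelium catch leukocytes. Its values were 2299 and 3498 in knockout CMP and 843 and 1401 in knockout GMP, against 832 and 671 in wild-type CMP and 135 and 169 in wild-type GMP. Both knockout libraries lay above both wild-type libraries in each type, and the means were 2898 ± 847 in knockout CMP against 751 ± 114 in wild-type CMP, and 1122 ± 395 in knockout GMP against 152 ± 24.1 in wild-type GMP (SD, n = 2 each). The log2 difference was 1.92 in CMP and 2.84 in GMP, on average 2.38 (SE 0.27, unadjusted p = 1.1e-05, adjusted p = 0.134 in limma). A fit with the replicate number as a block brought the adjusted p of Selp to 0.0417, and DESeq2 gave 2.59e-09. In the IP libraries Selp had scaled counts of 1876 and 1167 in knockout CMP and 7171 and 428 in knockout GMP, against 295 and 264 in CMP and 109 and 68.6 in GMP of the wild types. In the other 5 types its input values lay between 1257 and 6243 in knockout libraries and between 49.5 and 1987 in wild-type libraries, and there the difference passed the test, at 3.14 on the log2 scale (adjusted p = 4.67e-07).

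Other adhesion genes of endothelium and blood cells stood on the same side. Esam, which encodes a junctional adhesion molecule that also marks stem cells, had 673 and 1549 in knockout CMP and 50.8 and 170.5 in knockout GMP, against 278 and 239 in CMP and 10.8 and 27.0 in GMP of the wild types. F11r, which encodes junctional adhesion molecule A, had 507 and 979 in knockout CMP and 55.6 and 170.5 in knockout GMP, against 194 and 129 in CMP and 45.8 and 19.8 in GMP of the wild types. Neither passed in CMP and GMP (adjusted p = 0.956 for each), and both passed in the other types, with log2 differences of 2.19 and 2.39. Of 12 tested genes on a list of selectins and junctional adhesion molecules, drawn up after the values were seen, Selp, Esam and F11r met the shared higher pattern. The same 3 had an unadjusted p under 0.05. Over all genes tested the shares were 1.07% and 4.67%. The median difference of the list was 0.49 against 0.01 over all genes tested. That median was 0.19 without wild-type GMP 1 and 0.84 without wild-type CMP 2.

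**Figure D2:**
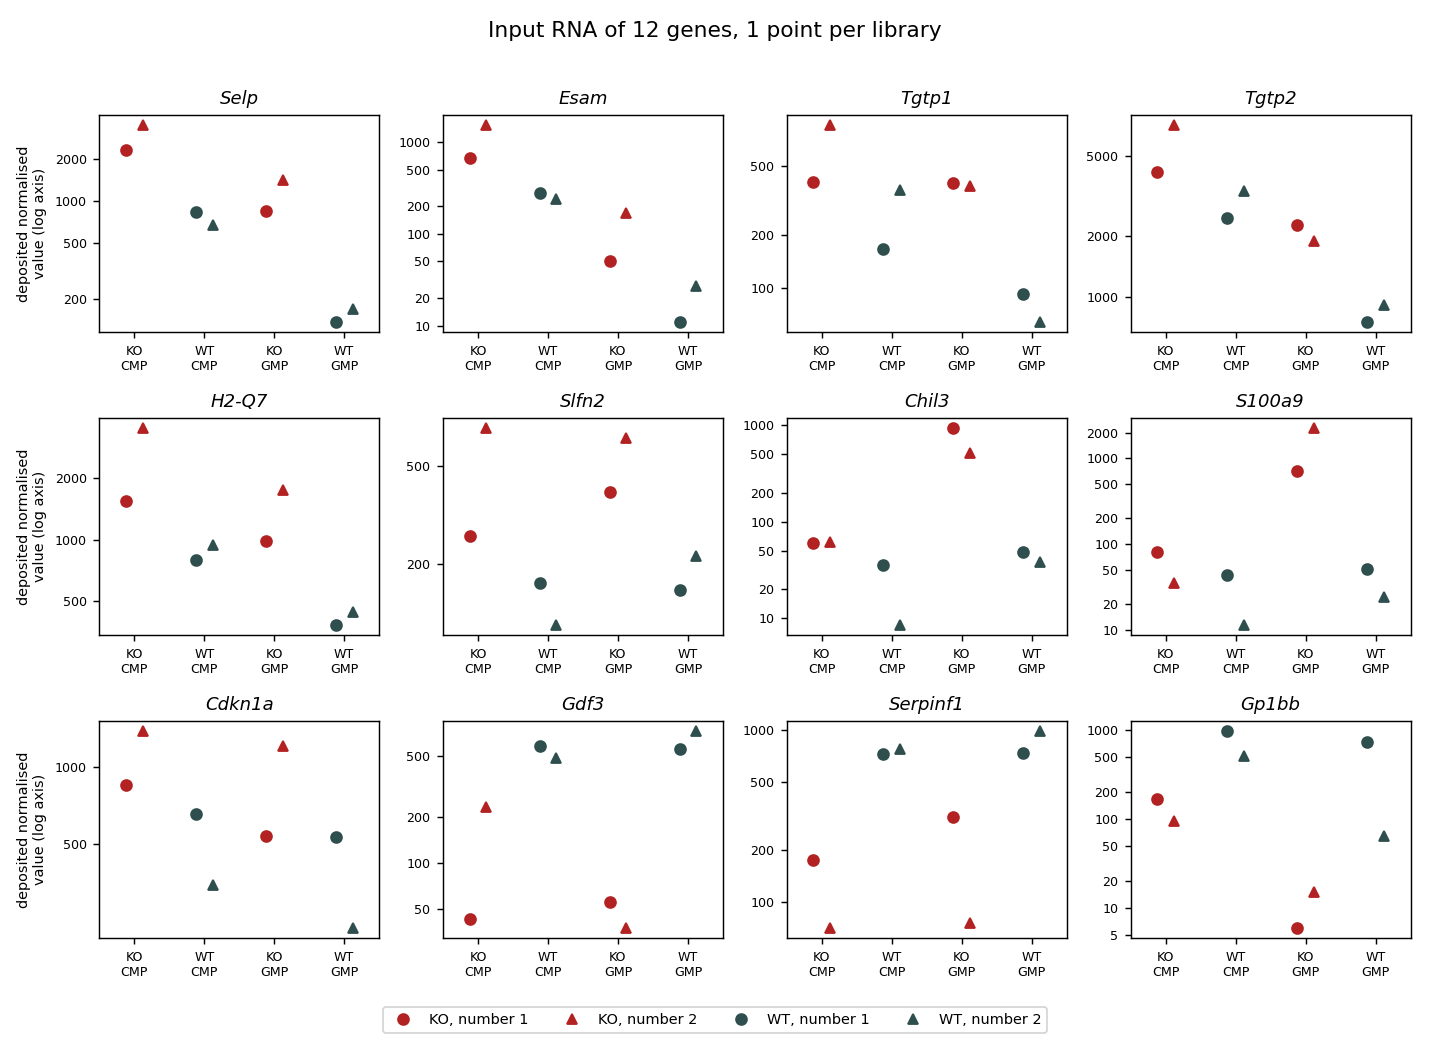
Deposited normalised input values of 12 genes on a log axis, 1 point per library, with knockout (red) left of wild type (dark grey) within CMP and within GMP; circles are libraries numbered 1 and triangles those numbered 2. Selp, Esam, Tgtp1, Tgtp2, H2-Q7, Slfn2 and Chil3 lie higher in both knockout libraries of each type, Gdf3, Serpinf1 and Gp1bb lie lower, and S100a9 overlaps between the genotypes in CMP only.

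The immunity-related GTPases, proteins that act against intracellular pathogens and are induced by interferons, had all 6 tested members above 0. The promoters of the 4 members with an unadjusted p under 0.05 are shown because these genes stood higher together; each line runs from 250 bases before to 50 bases after the start of the gene, from RefSeq on GRCm38.p6, and capitals mark matches to the core of the interferon-stimulated response element (GAAA and GAAA with any 2 bases between them) or to the gamma-activated site (TTC and GAA with any 3 bases between them), on both strands. The regions are chr11:48871371-48871670 on the minus strand for Irgm1, chr11:58199306-58199605 on the plus strand for Igtp, chr11:48992197-48992496 on the minus strand for Tgtp1 and chr11:49064163-49064462 on the minus strand for Tgtp2.
Irgm1: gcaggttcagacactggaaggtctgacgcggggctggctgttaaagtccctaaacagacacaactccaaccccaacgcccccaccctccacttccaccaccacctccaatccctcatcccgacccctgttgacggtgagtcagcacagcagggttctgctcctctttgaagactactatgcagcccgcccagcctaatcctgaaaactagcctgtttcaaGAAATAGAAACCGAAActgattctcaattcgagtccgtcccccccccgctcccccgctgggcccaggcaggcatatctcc
Igtp: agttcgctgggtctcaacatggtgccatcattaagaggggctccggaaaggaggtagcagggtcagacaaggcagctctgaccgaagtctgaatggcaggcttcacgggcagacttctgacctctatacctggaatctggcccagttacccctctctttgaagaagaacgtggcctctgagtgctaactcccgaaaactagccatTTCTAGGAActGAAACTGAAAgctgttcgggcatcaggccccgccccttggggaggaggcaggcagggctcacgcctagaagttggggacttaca
Tgtp1: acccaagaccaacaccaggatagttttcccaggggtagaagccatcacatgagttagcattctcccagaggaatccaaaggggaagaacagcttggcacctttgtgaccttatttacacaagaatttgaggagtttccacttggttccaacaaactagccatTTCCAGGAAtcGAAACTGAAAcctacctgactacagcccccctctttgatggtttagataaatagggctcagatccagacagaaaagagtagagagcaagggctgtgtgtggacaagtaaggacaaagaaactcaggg
Tgtp2: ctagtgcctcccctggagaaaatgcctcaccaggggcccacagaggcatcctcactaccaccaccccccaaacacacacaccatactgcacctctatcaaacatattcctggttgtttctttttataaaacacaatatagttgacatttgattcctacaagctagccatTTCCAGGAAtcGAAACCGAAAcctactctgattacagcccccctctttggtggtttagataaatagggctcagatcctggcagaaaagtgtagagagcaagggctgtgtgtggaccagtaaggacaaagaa
All 4 windows hold the response element core, Irgm1 with 2 overlapping matches, and Igtp, Tgtp1 and Tgtp2 also hold the gamma-activated site just before it. The response element core is found in 3.49% and the gamma-activated site in 8.47% of 27025 promoter windows, 1 per gene, and in 3.31% and 7.05% of the 9416 windows of tested genes. Among the shared higher genes, 5 of 92 with a window held the response element core (5.43%) and 9 held the gamma-activated site (9.78%). Among the shared lower genes it was 2 (2.6%) and 4 (5.19%) of 77. Such matches describe the letters only.

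Tgtp2 had the highest level of the family, with 4188 and 7156 in knockout CMP and 2273 and 1892 in knockout GMP, against 2469 and 3358 in wild-type CMP and 747 and 913 in wild-type GMP. Tgtp1 was at 406 and 862 in knockout CMP and 399.6 and 384 in knockout GMP, against 167 and 365 in CMP and 91.7 and 63.1 in GMP of the wild types, with an average log2 difference of 1.80 (SE 0.37, unadjusted p = 0.000911, adjusted p = 0.885). Tgtp1 and Tgtp2 are near-identical neighbours, and how reads were divided between them is uncertain. Igtp had 693 and 1864 in knockout CMP and 971 and 1426 in knockout GMP, against 664 and 567 in CMP and 332 and 353 in GMP of the wild types. Irgm1 had 848 and 1438 in knockout CMP and 294 and 949 in knockout GMP, against 451 and 615 in CMP and 94.4 and 364 in GMP of the wild types. In every one of these genes both knockout libraries lay above both wild-type libraries in CMP, and in GMP all but Irgm1 did. These 4 genes were picked by their unadjusted p in the same libraries, so their separation follows in part from the choice. It is a description and no support for a difference. The family list itself was drawn up after the values were seen. Of its 6 tested members 1, Tgtp1, met the shared higher pattern, which held 1.07% of all genes tested. All 6 tested members of the family had a difference above 0, with a median of 1.21 and of no less than 0.94 with any library left out. Over the family list the summed value was 6205 and 11518 in knockout CMP and 3992 and 4776 in knockout GMP, against 3820.4 and 5113 in CMP and 1286 and 1752 in GMP of the wild types. In the other 5 types 4 of 6 members passed the test, all higher in the knockout, where 7.98% of all genes tested did so in that direction.

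Counts over other interferon-induced genes were mixed. Of 29 tested members of a list of interferon response genes, 10 had a difference above 0, the median was -0.14, and the only member with an unadjusted p under 0.05 was Ifi27l2a, at 18.8 and 3.42 in knockout CMP and 4.73 and 1.17 in knockout GMP, against 37.5 and 43.4 in CMP and 24.3 and 23.9 in GMP of the wild types. Over that list the summed value ran from 3925 to 5948 in the knockouts and from 3293 to 6123 in the wild types. In the other 5 types 6 of its 30 members passed the test, all higher, where 7.98% of all genes tested did so. Of 6 tested guanylate-binding proteins, another family of interferon-induced GTPases, 3 lay above 0, with a median of -0.01, and 0 of 10 passed in the other types. H2-Q7, which encodes a non-classical MHC class I molecule, was at 1545 and 3543 in knockout CMP and 986 and 1756 in knockout GMP, against 799.7 and 941 in CMP and 380.2 and 441 in GMP of the wild types, a log2 difference of 1.56 (SE 0.32, adjusted p = 0.885). H2-Q genes are close copies of each other, so its counts are uncertain. B2m, the light chain that all class I molecules share, was at 12323 and 32464 in knockout CMP and 12405 and 30061 in knockout GMP, against 15983 and 12369 in CMP and 14994 and 17768 in GMP of the wild types, with no separation. Of 19 tested genes of MHC class I and antigen loading 14 lay above 0, with a median of 0.29 (0.05 without knockout CMP 2). An unadjusted p under 0.05 was found for 3, all higher (H2-Q4, H2-Q6 and H2-Q7). In the other 5 types 11 of the 19 passed, all higher (7.98% of all genes). Slfn2, a Schlafen protein tied to the quiescence of lymphocytes, had 258 and 714 in knockout CMP and 392 and 648 in knockout GMP, against 167 and 112 in CMP and 156 and 214 in GMP of the wild types. Of 5 tested Schlafen genes 2 lay above 0, with a median of -0.20 (-0.74 without wild-type GMP 1 and 0.43 without knockout GMP 1). The summed value of the Schlafen list ran from 409 to 843 in the knockouts and from 200 to 393 in the wild types, and Slfn2 had its highest mean.

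Genes of neutrophil maturation were mostly higher in the knockout libraries, with the larger gaps in GMP. Of 13 tested members of a list of late granule genes and calgranulins, 11 had a difference above 0 and 7 an unadjusted p under 0.05, all 7 higher. Over all 12172 genes tested, 6168 lay above 0 and 317 were higher at that unadjusted p. The median difference of the list was 2.19, with 1.02 in CMP and 3.27 in GMP. With a pseudocount of 10 it was 1.44, and it was also 1.44 without wild-type CMP 2. Chil3, a chitinase-like protein of maturing myeloid cells, was at 60.8 and 61.5 in knockout CMP and 949 and 518 in knockout GMP, against 35.4 and 8.40 in CMP and 48.5 and 38.2 in GMP of the wild types (log2 difference 2.87, SE 0.50, adjusted p = 0.839). S100a9, a calgranulin subunit, had 80.2 and 35.0 in knockout CMP and 722 and 2294 in knockout GMP, against 43.5 and 11.2 in CMP and 51.2 and 23.9 in GMP of the wild types. In GMP both knockout libraries lay far above both wild-type libraries for each gene, while in CMP S100a9 overlapped. Ngp, a granule protein, had 1546 and 375 in knockout GMP against 91.7 and 12.7 in wild-type GMP, and Ltf, lactoferrin, 271 and 105 against 64.7 and 1.02. In CMP the sum over the list did not separate the genotypes, at 926 and 1176 in knockout against 3306 and 779.9 in wild-type libraries. Of the 14 genes on the list, 1 was higher in every knockout library than in any wild-type one.

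Markers of other myeloid cells went different ways. Of 11 tested monocyte genes 2 were above 0, with a median of -0.48 (0.01 without knockout GMP 2). In the other 5 types 2 of the 11 passed, both higher. Of 8 tested eosinophil genes 6 were above 0, with a median of 0.18 (-0.17 without wild-type GMP 1). Of 9 tested mast cell and basophil genes 8 were above 0, where 6168 of all 12172 genes were. Their median was 0.97 (0.56 without knockout GMP 2), and 4 of 11 passed in the other 5 types, all higher. Their summed value was 3735 and 6283 in knockout CMP and 11731 and 33575 in knockout GMP, against 3060.2 and 2736 in CMP and 6672 and 14048 in GMP of the wild types. Of 10 dendritic cell genes 8 were above 0, with a median of 1.47 (0.70 without knockout CMP 2), and 0 of 12 passed in the other types. At the unadjusted level used for the other lists the members were split, with 2 higher (Cd74 and H2-Aa) and 2 lower (Flt3 and Irf8). The sum over the dendritic cell list was 7088 and 81443 in knockout CMP and 7599 and 15893 in knockout GMP, against 10208 and 10771 in CMP and 12376 and 6451 in GMP of the wild types. The part of these cells in the results was not tested. The late granule genes are also the markers of mature neutrophils, and more RNA per cell and more such cells cannot be told apart in bulk samples. The summed value of all 14 genes on the list was 926 and 1176 in knockout CMP and 7643 and 16748 in knockout GMP, against 3306 and 779.9 in wild-type CMP and 1990.3 and 1059.6 in wild-type GMP, and none of the 14 was at 0 throughout. Wild-type CMP 1 was high mostly through S100a8, at 2603 and 22.4 in the wild-type CMP libraries, where the knockout CMP libraries had 74.6 and 107. Genes of the progenitor stage were mixed. Of 11 tested members of the list for granulocyte-monocyte progenitors and primary granules, 7 lay above 0, with a median of 0.13. Elane, neutrophil elastase, was at 26389 and 13196 in knockout CMP and 193120 and 106060 in knockout GMP, against 37297 and 7411 in CMP and 368840 and 134930 in GMP of the wild types. The exception was Ms4a3, a membrane protein of GMP, at 2819 and 6190 in knockout CMP and 14638 and 33734 in knockout GMP, against 2084 and 666 in CMP and 8765 and 12236 in GMP of the wild types. Cebpe, the transcription factor of terminal granulocyte maturation, was at 460.2 and 407 in knockout CMP and 3928 and 3453 in knockout GMP, against 364 and 44.8 in CMP and 2476 and 1062 in GMP of the wild types. It met the shared pattern (log2 difference 1.46, SE 0.58). Spi1 and Cebpa, the main factors of the myeloid lineage, differed by 0.47 (SE 0.55) and -0.13 (SE 0.38). In the other 5 types 7 of 14 late granule genes passed the test, all higher in the knockout (7.98% of all genes did).

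Targets of p53, the factor that halts the cell cycle or triggers death after damage, mostly lay higher in the knockout libraries. Of 20 tested members 15 had a difference above 0 (6168 of 12172 over all genes), with a median of 0.72 and values of 0.73 in CMP and 0.71 in GMP. An unadjusted p under 0.05 was found for 4, all higher (317 of 12172 over all genes). The summed value was 6957 and 9159 in knockout CMP and 6257 and 9239 in knockout GMP, against 6006 and 4112 in wild-type CMP and 5884 and 3604 in wild-type GMP. The 4 knockout libraries lay above the 4 wild-type libraries, by a small margin between the lowest and the highest. Sums were looked at for every list, and that of the Schlafen genes was separated as well. How often a list would separate without a difference between the genotypes was not tested. Cdkn1a, which encodes the p21 inhibitor of cyclin-dependent kinases, was at 851 and 1395 in knockout CMP and 539 and 1214 in knockout GMP, against 658 and 347 in CMP and 534 and 235 in GMP of the wild types (log2 difference 1.19, SE 0.40, adjusted p = 0.969). In GMP the margin between knockout GMP 1 and wild-type GMP 1 was narrow. Phlda3, an inhibitor of Akt signalling, was at 277 and 480.2 in knockout CMP and 53.2 and 197 in knockout GMP, against 69.8 and 36.4 in CMP and 102 and 9.16 in GMP of the wild types, and overlapped in GMP. Aen, an exonuclease induced in apoptosis, was at 1216 and 2030.3 in knockout CMP and 1446 and 2106 in knockout GMP, against 1157 and 1187 in CMP and 936 and 833 in GMP of the wild types, with no overlap in either type. Mdm2, which degrades p53 and is itself a target, was at 305 and 238 in knockout CMP and 322 and 285 in knockout GMP, against 303 and 346 in CMP and 111 and 266 in GMP of the wild types. In the other 5 types 7 of 20 targets passed the test, all higher (7.98% of all genes), among them Cdkn1a (1.98) and Gdf15 (3.95). Gdf15, a stress-induced cytokine, was in CMP and GMP at 89.7 and 109 in knockout CMP and 29.6 and 21.0 in knockout GMP, against 25.3 and 11.2 in CMP and 56.6 and 4.07 in GMP of the wild types. Of 30 cell cycle genes, 1 had an unadjusted p under 0.05, Ccnd1, cyclin D1, at 562 and 631 in knockout CMP and 212 and 279 in knockout GMP, against 254 and 407 in CMP and 83.6 and 161 in GMP of the wild types. The median was 0.17.

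Enzymes and chaperones of collagen folding had 4 of 13 members in the shared higher pattern, which held 1.07% of all genes tested. Of these, Fkbp10 and Serpinh1 reached 10 in no wild-type library and so passed the filter on low values through the knockout libraries only. The count of 4 is therefore a description and no support for a difference. Fkbp10, a prolyl isomerase of the endoplasmic reticulum, was at 115 and 107 in knockout CMP and 3.55 and 23.4 in knockout GMP, against 1.01 and 5.60 in CMP and 0 and 3.05 in GMP of the wild types. Serpinh1, the collagen chaperone HSP47, had 112 and 46.1 in knockout CMP and 11.8 and 5.84 in knockout GMP, against 8.10 and 0 in CMP and 0 and 1.02 in GMP of the wild types. P3h4, a partner of prolyl and lysyl hydroxylases, had 103 and 100.0 in knockout CMP and 9.46 and 84.1 in knockout GMP, against 25.3 and 19.6 in CMP and 5.39 and 4.07 in GMP of the wild types. Plod2, a lysyl hydroxylase, was at 53.3 and 38.5 in knockout CMP against 11.1 and 18.2 in wild-type CMP, and averaged 16.4 ± 4.84 in knockout GMP against 4.15 ± 2.05 in wild-type GMP (SD, n = 2 each). All 4 had low values, and Serpinh1 and Fkbp10 were farther apart in CMP than in GMP. Over the 13 genes the median was 0.83, with 1.31 in CMP and 0.28 in GMP, and 9 lay above 0. Without knockout GMP 2 the median was 0.39. In the other 5 types 6 of 13 passed, all higher (7.98% of all genes), with Fkbp10 at 4.59, Serpinh1 at 3.03 and P3h4 at 2.44, while Plod2 was at -0.52 there (adjusted p = 0.609).

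Among genes of cytokine signalling, Socs2, a feedback inhibitor of JAK-STAT signalling, was apart in both types, with 213 and 203 in knockout CMP and 39.0 and 61.9 in knockout GMP, against 64.8 and 50.4 in CMP and 16.2 and 12.7 in GMP of the wild types (log2 difference 1.78, SE 0.40, adjusted p = 0.956). Of 8 SOCS family genes 7 lay above 0 (6168 of 12172 over all genes), and Socs2 was the only one with an unadjusted p under 0.05. The median of the 8 was 0.37 (-0.02 without wild-type GMP 2 and 0.84 without knockout GMP 1). Csf2rb2, a beta subunit of the interleukin 3 receptor, was at 49.5 and 83.7 in knockout CMP and 22.5 and 46.7 in knockout GMP, against 17.2 and 26.6 in CMP and 2.70 and 21.4 in GMP of the wild types. It is a close copy of Csf2rb, at 653 and 1434 in knockout CMP and 579 and 1480.5 in knockout GMP, against 324 and 703 in CMP and 267 and 663 in GMP of the wild types, so the split between them is uncertain. Flt3, the receptor of early progenitors, was lower in the knockout libraries, at 349.8 and 132 in knockout CMP and 78.0 and 60.7 in knockout GMP, against 335 and 1119 in CMP and 99.8 and 132 in GMP of the wild types, with overlap in CMP. Flt3l, its ligand, was at 102 and 179 in knockout CMP and 31.9 and 77.1 in knockout GMP, against 75.9 and 37.8 in CMP and 18.9 and 12.7 in GMP of the wild types. Irf8, the factor that favours monocytes and dendritic cells over granulocytes, was at 3847 and 3600 in knockout CMP and 5432 and 1496 in knockout GMP, against 6213 and 5834 in CMP and 11321 and 4884 in GMP of the wild types (log2 difference -1.04, SE 0.43). Both knockout libraries lay below both wild-type libraries in CMP, but in GMP knockout GMP 1 lay above wild-type GMP 2. Myc, a driver of growth, was at 6229 and 10670 in knockout CMP and 7432 and 16665 in knockout GMP, against 8139.8 and 7809.9 in CMP and 7794 and 7145 in GMP of the wild types, with overlap in both types.

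The 45 shared higher genes with a mean of at least 50 had varied roles. Gsn, gelsolin, which severs actin filaments, was at 675 and 1858 in knockout CMP and 569 and 1004 in knockout GMP, against 288 and 356 in CMP and 391 and 182 in GMP of the wild types. Tgm2, tissue transglutaminase, was at 284 and 703 in knockout CMP and 30.7 and 135 in knockout GMP, against 70.9 and 61.6 in CMP and 21.6 and 8.14 in GMP of the wild types. Mylk, myosin light chain kinase, was at 194 and 319 in knockout CMP and 33.1 and 193 in knockout GMP, against 54.7 and 57.4 in CMP and 27.0 and 26.5 in GMP of the wild types. Serpina3g, a protease inhibitor, reached 3249.5 and 34401 in knockout CMP and 1869 and 11235 in knockout GMP, against 2149 and 2522 in CMP and 1111 and 794 in GMP of the wild types. The libraries numbered 2 carried most of that gap, and the gene belongs to a cluster of close copies.

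The lower side of the pattern was led by Gdf3, a growth factor of the TGF-beta family, with 43.3 and 233 in knockout CMP and 55.6 and 37.4 in knockout GMP, against 587 and 486 in wild-type CMP and 564 and 739.6 in wild-type GMP. All 4 wild-type libraries lay above all 4 knockout libraries, with a log2 difference of -3.09 (SE 0.50, unadjusted p = 0.000168, adjusted p = 0.683). Serpinf1, the secreted anti-angiogenic factor PEDF, was separated likewise, at 174 and 70.1 in knockout CMP and 312 and 74.7 in knockout GMP, against 722 and 779.9 in CMP and 731 and 994 in GMP of the wild types (log2 difference -2.61, SE 0.47). Gp1bb, a subunit of the platelet receptor for von Willebrand factor, was at 167 and 94.8 in knockout CMP and 5.91 and 15.2 in knockout GMP, against 984 and 507 in CMP and 739 and 64.1 in GMP of the wild types. In the megakaryocyte list, 6 of 11 tested members lay above 0, with a median of 0.20. Zfp783, a zinc finger gene, was at 49.5 and 29.1 in knockout CMP and 50.8 and 24.5 in knockout GMP, against 187 and 299.6 in CMP and 119 and 246 in GMP of the wild types. Gpc3, a cell surface proteoglycan, was at 18.8 and 25.6 in knockout CMP and 29.6 and 19.8 in knockout GMP, against 122 and 72.8 in CMP and 140.2 and 88.5 in GMP of the wild types. Gdf3, Serpinf1, Gp1bb and Zfp783 were also lower in the other 5 types and passed there, at -2.21, -1.90, -2.01 and -2.68, while Gpc3 was at -0.13 there (adjusted p = 0.921). Satb1, a chromatin organiser of lymphoid development, was at 118 and 16.2 in knockout CMP and 63.8 and 12.8 in knockout GMP, against 122 and 174 in CMP and 127 and 76.3 in GMP of the wild types. Prdm16, a stem cell factor, was at 41.4 and 34.2 in knockout CMP and 8.28 and 50.2 in knockout GMP, against 56.7 and 111 in CMP and 59.3 and 62.6 in GMP of the wild types. The list of stem cell regulators that holds Prdm16 leaned the other way. Of its 27 tested members 18 lay above 0, with a median of 0.41 (0.12 without knockout GMP 2). Its members Hoxb5 and Esam met the shared higher pattern, and only Prdm16 met the lower one. Dntt, the terminal transferase of lymphoid progenitors, was at 40.1 and 23.1 in knockout CMP against 189 and 563 in wild-type CMP and was near the floor in GMP. The 6 tested genes of the lymphoid progenitor list had a median of -1.36 and 1 lay above 0. With a pseudocount of 10 that median was -0.62.

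Several marker lists moved with 1 library or with the library number rather than with the genotype. Genes of MHC class II, which mark antigen-presenting cells, summed to 5323 and 83002 in knockout CMP and 4685 and 17165 in knockout GMP, against 7040.5 and 7860.3 in CMP and 3093 and 4243 in GMP of the wild types. Cd74, the class II chaperone, was at 984 and 31170 in knockout CMP and 774 and 5854 in knockout GMP, against 1350.4 and 1278 in CMP and 243 and 421 in GMP of the wild types. The excess lay in the knockout libraries numbered 2, of 11 class II genes 0 were higher in all 4 knockout libraries, and the list's median difference was 0.65, or 0.19 without knockout CMP 2. Erythroid markers summed to 4416 and 37517 in knockout CMP and 2185 and 4690.3 in knockout GMP, against 14427 and 9554 in CMP and 1799 and 3452 in GMP of the wild types. Immediate early and heat shock genes, which are induced by handling and stress, summed to 33981 and 8316 in knockout CMP and 35730 and 7209 in knockout GMP, against 60966 and 5851 in CMP and 107870 and 4309.7 in GMP of the wild types. The library numbered 1 was higher in each group. The median over their 16 tested genes was 0.21 and ran from -1.07 without wild-type CMP 2 to 1.03 without wild-type CMP 1. The part of these differences in the results above was not tested. The B cell and T cell lists held 6 tested genes each, of which 0 were higher and 1, Cd28 in the T cell list, was lower at an unadjusted p of 0.05. In the B cell list 1 of 6 lay above 0, with a median of -0.73 (-1.30 without knockout GMP 1 and -0.25 without knockout GMP 2). In the T cell list 3 of 6 lay above 0, with a median of 0.22. Its member Tcf7 met the shared higher pattern, at a mean of 4.03, and Cd3e was at 0 in all 8 libraries.

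**Figure D3:**
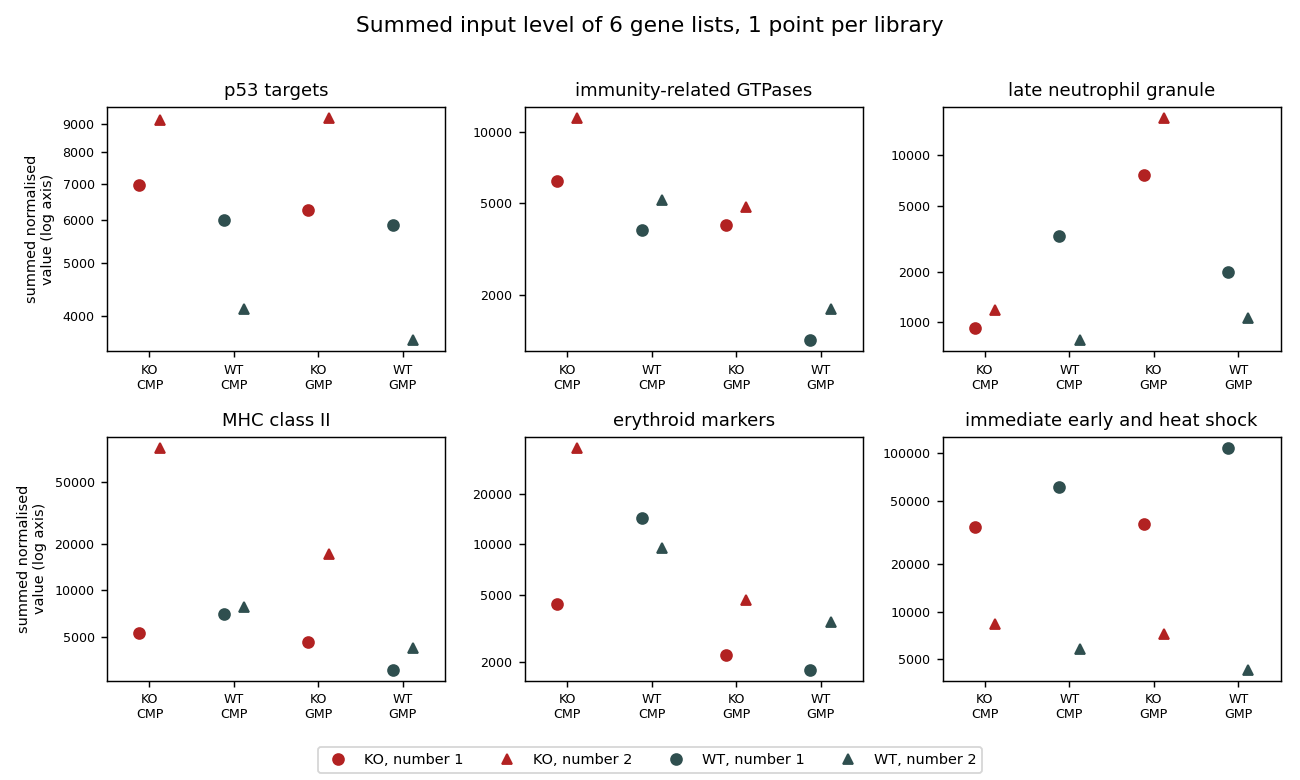
Summed deposited normalised input values of 6 gene lists on a log axis, 1 point per library, with knockout (red) left of wild type (dark grey) within CMP and within GMP. The p53 targets lie at 6257 or more in the 4 knockout libraries and at 6006 or less in the 4 wild-type libraries, the class II sum is highest in knockout CMP 2, and the immediate early sum follows the library number.

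Few genes differed in opposite ways between the types, and the difference between the CMP and the GMP effect passed for 0 of 12172 genes (0%), with 57 (0.468%) at an unadjusted p of 0.05. Among genes with a mean of at least 50, Cracr2b, a regulator of calcium channels, had the smallest p, at 179.9 and 267 in knockout CMP against 34.4 and 18.2 in wild-type CMP, and 291 and 273 in knockout GMP against 299 and 205 in wild-type GMP (difference of log2 differences 2.89, SE 0.69, adjusted p = 1). S100a9 stood on the other side, at -3.94 (SE 1.19). Igkc, the immunoglobulin kappa constant region, was at 299 and 388 in knockout GMP against 72.8 and 76.8 in wild-type GMP, while in CMP it was at 61.4 and 140.1 in knockout and 70.9 and 174 in wild-type libraries.

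The CMP and GMP pattern was looked up in the 20 input libraries of the other 5 types, none of which had been used to choose it. The differences and their signs came from these 20 libraries. The spread behind the calls came from a fit that also held the CMP and GMP inputs that set the pattern. A rule of no overlap favours genes with a small spread there, so the shares of called genes are not independent of the choice. There the average difference between knockout and wild type passed for 1199 higher (7.98%) and 515 lower (3.43%) of 15030 genes. At an unadjusted p of 0.05 the count was 4201 (28%). Of the 130 shared higher genes, 65 were called higher there (50.0%), against 8.94% of the 11928 tested genes outside the pattern, and of the 114 shared lower genes 30 were called lower (26.3%), against 3.55%. No gene of either set was called in the opposite direction. The sign was the same for 92.3% of the higher and 84.2% of the lower genes. Among genes with a mean of at least 50, 37 of 45 higher (82.2%) and 12 of 32 lower genes (37.5%) were called, against 10.6% and 4.08% of 8671 genes outside the pattern. Without the LT.HSC libraries the shares were 46.9% and 19.3%, and without the ST.HSC libraries 50.0% and 20.2%. Taken alone, MEP called 24 of the 130 higher genes, LT.HSC 8, ST.HSC 1, MkP 1 and MPP 0, where the shares among genes outside the pattern were 2.49%, 0.411%, 0.00838%, 0.117% and 0%. Of the 114 lower genes, MkP alone called 1 and each of the other 4 types 0. Same-numbered libraries of 1 genotype also moved together between CMP or GMP and the other types, with a median correlation of deviations of 0.26 in the knockout and 0.23 in the wild type, so these libraries may share a source with the CMP and GMP libraries. On chromosome 14, which holds Mettl3 (GRCm38.p6, 52294841 to 52308741), 6 of 407 tested genes belonged to the shared sets (1.47%), against 1.94% of all 11840 tested genes that the annotation places. Within 5000000 bases of Mettl3 it was 3 of 108 genes (2.78%), among them Cebpe, and within 10000000 bases 4 of 151 (2.65%).

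**Figure D4:**
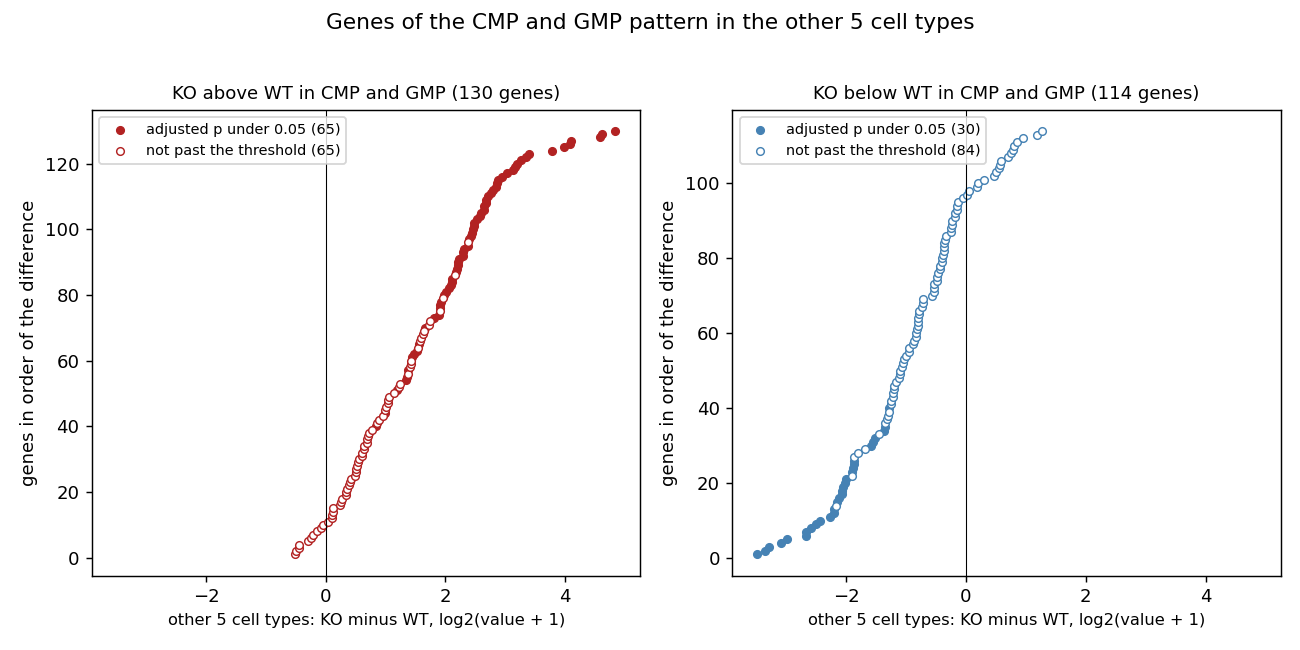
Knockout minus wild-type difference of log2(value + 1) averaged over LT.HSC, ST.HSC, MPP, MEP and MkP (horizontal axis, 2 libraries per genotype and type) for the 130 shared higher genes (left) and the 114 shared lower genes (right), in order of that difference. Filled points passed an adjusted p of 0.05, 65 on the left and 30 on the right, and no filled point lies on the opposite side of 0.

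The difference between the effect in CMP and GMP and the effect in the other types passed for 0 of 15030 genes (0%), with 542 (3.61%) at an unadjusted p of 0.05. Among genes with a mean of at least 50, the smallest p belonged to Tmem215, a membrane protein, at 56.4 and 60.7 in knockout CMP and 48.5 and 52.5 in knockout GMP, against 53.7 and 35.0 in CMP and 67.4 and 46.3 in GMP of the wild types, with a difference of 0.14 here against 4.63 in the other types (adjusted p of that contrast = 0.418). Tnfrsf1a, a receptor of tumour necrosis factor, was at 571 and 829 in knockout CMP and 777 and 1365 in knockout GMP, against 829 and 496 in CMP and 1551 and 886 in GMP of the wild types, a difference of -0.04 against 2.12. Lag3, an inhibitory receptor, differed by -0.82 against 1.82. On the other side, St6galnac3 had the smallest p, with a contrast of 2.19 (SE 0.71), and Abcb4 had a contrast of 2.69 (SE 1.01). Also on that side, Npm1, a nucleolar chaperone, differed by 0.45 in CMP and GMP and by -0.60 in the other types, and Itgb1, the integrin beta 1 chain, by 0.03 and -1.12.

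In the IP libraries, edgeR's quasi-likelihood test called 0 of 14108 genes (0%) over the average of CMP and GMP, with 793 (5.62%) at an unadjusted p of 0.05, while DESeq2 called 120 of the 3441 genes to which it gave an adjusted p (3.49%). Without knockout CMP 1 and knockout GMP 1 edgeR called 0 of 15238, with 1082 (7.1%) at an unadjusted p of 0.05, and DESeq2 203 of 12874 (by itself, leaving out knockout GMP 2, which keeps knockout GMP 1 as the only knockout GMP library, gave 1367). S100a8 had the smallest p, with scaled counts of 9908 and 624 in knockout CMP and 13719 and 32566 in knockout GMP, against 351 and 209.8 in CMP and 1651 and 1439.7 in GMP of the wild types (adjusted p = 0.261). On the lower side Rpl10a-ps1 and Gp1bb had the smallest p among genes with a mean of at least 50, with log2 differences of -10.70 (SE 3.03) and -5.43 (SE 1.59). Serpinf1 was at 64.9 and 141 in knockout CMP and 19.6 and 58.6 in knockout GMP, against 1029 and 627 in CMP and 1231 and 463 in GMP of the wild types. Gdf3 was at 1.23 and 175 in knockout CMP and 13.1 and 17.6 in knockout GMP, against 866 and 383 in CMP and 1164 and 363 in GMP of the wild types. Serpinf1 and Gdf3 were lower in every knockout IP library than in any wild-type one. H2-Eb1, a class II chain, was at 613 and 4321 in knockout CMP and 1722 and 1127 in knockout GMP, against 216 and 231 in CMP and 72.2 and 144 in GMP of the wild types. Dusp1, a phosphatase among the immediate early genes, was at 149 and 64.7 in knockout CMP and 154 and 49.2 in knockout GMP, against 4235 and 59.7 in CMP and 3854 and 31.8 in GMP of the wild types, so its gap came from the wild-type libraries numbered 1. The IP libraries followed the inputs: of 119 shared higher genes tested there 100 had the same sign (84.0%), against 44.5% of genes outside the pattern, and of 111 shared lower genes 97 (87.4%), against 55.5%. Without the libraries that stood apart the shares were 91.1% and 92.9%. Without them the IP difference was 2.78 for S100a8, -3.20 for Serpinf1, -3.63 for Gdf3, 3.83 for H2-Eb1 and -5.17 for Dusp1, against 4.10, -3.71, -4.25, 3.52 and -4.30 with all libraries. IP and input libraries with the same label may come from the same RNA, so this is no separate test of the pattern.

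The m6A enrichment of a gene, the log2 ratio of IP to input, was compared between the genotypes after scaling within each table, which removes a loss of m6A common to all genes. It differed for 0 of 11969 genes (0%) over the average, with 209 (1.75%) at an unadjusted p of 0.05, and for 0 genes within CMP (22 unadjusted, 0.184%) and within GMP (160, 1.34%). Without knockout IP CMP 1 and knockout IP GMP 1 the unadjusted counts were 173, 73 and 121 of 11956. The median difference of all genes was -0.69 over the average, -0.33 in CMP and -1.08 in GMP, but without knockout IP CMP 1 and knockout IP GMP 1 it was -0.06, -0.03 and -0.08. The median thus rested on the libraries that stood apart, and 0 genes were called without them. Leaving out knockout IP GMP 2, which leaves knockout IP GMP 1 as the only knockout GMP library, gave 3439 called genes over the average and 5234 in GMP. Siglecg, an inhibitory receptor of B cells, had the smallest p on the lower side among genes with a mean of at least 50, with IP counts of 0 and 11.4 in knockout CMP and 9.80 and 165 in knockout GMP, against 102 and 92.2 in CMP and 395 and 189.8 in GMP of the wild types, and an enrichment difference of -3.92 (SE 1.37, adjusted p = 0.821). On the higher side Rps12l1 and Dpm3 had the smallest p among such genes, with enrichment differences of 5.44 (SE 1.94) and 2.75 (SE 1.01). They were followed by Tmem258, a subunit of the oligosaccharyltransferase, with IP counts of 18425 and 6681 in knockout CMP and 29381 and 7126 in knockout GMP, against 1125 and 7713 in CMP and 1654 and 9029.7 in GMP of the wild types. Ndufa3, a subunit of respiratory complex I, had 19731 and 10948 in knockout CMP and 16551 and 8437 in knockout GMP, against 1352 and 9840.2 in CMP and 1709 and 10328 in GMP of the wild types. In Tmem258 and Ndufa3, the wild-type IP libraries numbered 1 were low, while those numbered 2 lay among the knockout values. For Selp the enrichment differed by 0.95 (SE 1.02) and for Gdf3 by -2.04 (SE 1.54). Without the libraries that stood apart the enrichment differences were -2.02 for Siglecg, 1.75 for Tmem258, 1.99 for Ndufa3, -0.23 for Selp and -0.36 for Gdf3. The sign thus turned for Selp.

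The shared genes were also described by wild-type measurements of other samples of the series. In wild-type CMP and GMP of the atlas, enrichment in the IP had a median of 0.86 on the log2 scale over 82 shared higher genes (interquartile range 0.12 to 1.89), of 1.35 over 101 shared lower genes (0.61 to 2.00) and of 1.33 over 11299 genes outside the pattern (0.48 to 2.13). The ranges overlapped widely. The share of new RNA after 3 h of labelling with 4-thiouridine had a median of 1.35% in CMP and 0.56% in GMP over 90 shared higher genes, of 1.08% and 0.63% over 87 shared lower genes, and of 1.70% and 1.06% over 10624 other genes. These medians are descriptions: a filter on low values decided which members had a value, and weakly expressed genes are more numerous in the shared sets.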

How the data were processed

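Members, gene lists and the shared pattern were chosen with earlier results of these data known. Of tools, fastp, Trimmomatic and kallisto, and of builds GRCm38, appear in the submitters' processing notes, without versions. Their roles and the annotation were not given in the sources used here. For the inputs, the authors deposited a normalised signal per gene symbol, counts divided by a library factor. Of these values 100% are whole multiples of 1 step per library, within 0.1 of a read. The authors deposited the IP values as estimated counts with fractions, rounded here. New RNA was deposited by the authors as a fraction and is printed as percent; its depth is unknown. The wild-type atlas tables, used only for the enrichment of the shared genes, hold counts for the IP and a normalised signal for the inputs, as deposited. The design had assumed whole counts for the IP table; the test was kept.

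Input genes that reached 10 in 2 or more of 8 libraries (12172 of 36102) were tested with limma 3.58.1 (R 4.3.3, trend) on log2(value + 1), which understates changes near 0; for other types all 28 libraries were fitted. IP counts were tested with edgeR 4.0.16 after TMM scaling, and enrichment with limma over both tables, scaled within each. DESeq2 1.42.0, edgeR on recovered reads, other pseudocounts, filters, scalings, a replicate block and left-out libraries were alternatives. P-values were adjusted by Benjamini-Hochberg (threshold 0.05). The steps were tested on simulated data. Lists are described by counts and medians only; those of immunity-related GTPases, guanylate-binding proteins, adhesion, MHC and Schlafen genes were drawn up after the values were seen. By rule, genes to be named per contrast were those past the threshold or, with none, the 4 smallest unadjusted p in each direction with a mean of at least 50. Fixed genes and list members were added. Apart from the contrast of the input average, the text names only part of these genes, chosen with their values seen. All other genes were also chosen after their values were seen.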

Additional observations from a re-analysis of the deposited data

Results flagged for a closer look

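In CMP and GMP the knockout libraries lay on opposite sides of the wild-type libraries, by a log2 difference of at least 1 in each, for 13 genes higher in CMP and 17 lower in CMP. Of the genes higher in CMP 2.51% were lower in GMP (4.12% of all genes tested). Of those lower in CMP 3.39% were higher in GMP (3.79% of all genes tested). The counts were thus no larger than the shares over all genes would give. Of the 13 and 17 genes, 4 had a mean of at least 50. By the gene-wise limma test of the difference none of the 4 passed (adjusted p = 1 each). Pagr1a, a partner of histone methyltransferases, had 175 and 56.4 in knockout CMP against 11.1 and 12.6 in wild-type CMP, and 89.8 and 75.9 in knockout GMP against 383 and 109 in wild-type GMP, a CMP minus GMP difference of 4.26 on the log2 scale. Fgf3, a fibroblast growth factor, had 249 and 877 in knockout CMP against 102 and 219.8 in wild-type CMP, and 83.9 and 77.1 in knockout GMP against 245 and 116 in wild-type GMP, a difference of 2.70. Vldlr, a lipoprotein receptor, had 4.39 and 60.7 in knockout CMP against 93.1 and 159.6 in wild-type CMP, and 59.1 and 43.2 in knockout GMP against 16.2 and 17.8 in wild-type GMP, a difference of -4.27. Vcam1, an adhesion molecule for leukocytes, had 11.3 and 19.7 in knockout CMP against 20.2 and 51.8 in wild-type CMP, and 245 and 458 in knockout GMP against 59.3 and 150.1 in wild-type GMP, a difference of -2.89.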

How the results depend on the processing

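Counts of input genes past the threshold stayed at 0 for the average, CMP, GMP, the difference of types and the difference from the other types when each library was left out (0 to 0), with a pseudocount of 10, without a filter and with TMM scaling. The exceptions were 1 gene for the average with a replicate block (Selp), 1 for the average and 1 for CMP with all 28 inputs in the fit (A430089I19Rik, chosen after its values were seen), and 75 for the average in DESeq2. For the other 5 types the count was 1714, and 980 without LT.HSC. In the IP it was 21 without a filter, 2 with DESeq2 size factors, which moved the median of all genes from -0.12 to 0.17, and 120 in DESeq2, and between 0 and 1367 with a library left out. Enrichment counts with a library left out ran from 0 to 3439 for the average, 0 to 0 in CMP and 0 to 5234 in GMP; the cause of the upper values was not tested. The shared pattern gave 71 higher and 39 lower genes with a pseudocount of 10, 183 lower without a filter, and 110 to 285 higher and 111 to 197 lower with a library left out. No gene named by the rule changed sign in its own contrast under any alternative run; Selp did in enrichment. The block takes numbers as pairs, but between the genotypes the deviations of same-numbered libraries correlated at 0.04 in CMP, 0.19 in GMP and -0.02 and 0.24 across types (0.49 and 0.56 within a genotype), so pairing was not taken as given; other block counts stayed at 0. With 2 libraries per group, a difference must be large against the spread to be called.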
